A study of Mus musculus with 3 samples.

Results

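A set of 10 genes of protein folding in the endoplasmic reticulum (ER) was followed in mouse visceral adipose fibroblasts: Hspa5, Hyou1, Hsp90b1, Pdia3, Pdia4, Pdia6, Dnajb11, Creld2, Manf and Sdf2l1. They were taken by name from the protein-coding genes of the count table, where all 10 were found among 56748 listed genes. WT mice on a high-fat diet (HFD) gave the stromal vascular fraction, which is what remains of a fat pad without its adipocytes, and leukocytes (CD45), endothelial cells (CD31) and erythroid cells (Ter119) were depleted from it with magnetic beads. The first library is from cells given Osm, a recombinant mouse cytokine of the interleukin 6 family (oncostatin M), at 3 ng/mL for 24 h. Another is from cells given TGF-beta1, a recombinant human factor known for driving matrix production, at the same 3 ng/mL for 24 h. The vehicle cells, labelled as the control, came from the same kind of mice, and no time is given for them. The sources used here do not say how old the mice were or how many mice or cultures stand behind a library. Each treatment has 1 library, so replicates cannot check any difference and p-values are left out.

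Proteins bound for secretion or the cell surface enter the ER unfolded. The Hsp70-type chaperone BiP, encoded by Hspa5, holds them with the help of J-domain partners and nucleotide exchange factors, Grp94 (Hsp90b1) takes over a set of later clients, and disulfide isomerases make and reshuffle the cysteine bonds. When unfolded protein builds up, the unfolded protein response raises many of these genes through the transcription factors Atf6 and Xbp1, while its Perk arm acts through Atf4. Fibroblasts are secretory cells whose collagens need the same machinery together with dedicated collagen chaperones.

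The Osm, TGF-beta1 and vehicle libraries held 17319872, 18533741 and 18336068 counted reads. For comparing libraries, levels are given as CPM, which are counts scaled to the size of the library. For comparing genes they are given as the authors' FPKM, which are also divided by gene length. Fold values are ratios of CPM, and the range in brackets is an exact 95% interval for counting error, which leaves out differences between cultures. The 13712 genes that reached 1 CPM somewhere, all members included, serve as the background and are called the tested genes. Fibroblast markers were abundant in all 3 libraries, with Col1a1 at 4023 CPM with Osm, 8039 CPM with TGF-beta1 and 4285 CPM with vehicle. Over the 8 fibroblast markers the median log2 ratio of TGF-beta1 over vehicle was -0.35, with 2 at least 25% higher (Col1a1 and Col1a2) and 4 at least 20% lower (Fn1, Dcn, Pdgfra and Lum). Dcn was at 1757 CPM with Osm, 823.9 CPM with TGF-beta1 and 1984 CPM with vehicle. The markers of the depleted cell types were low beside the fibroblast markers, with the highest sum at 50.4 CPM for the 6 endothelial markers with vehicle. Ptprc, the gene of the sorted-out CD45, had 2 counts with Osm and 0 in both other libraries, Pecam1 (CD31) had 3, 5 and 2 counts with Osm, TGF-beta1 and vehicle, and Mzb1, which marks the highly secretory plasma cells, had 0 in every library.

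The ER stress response element (ERSE) is the known binding site of Atf6 with the CCAAT-binding factor NF-Y. It was searched as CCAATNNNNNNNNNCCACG on both strands of the RefSeq promoters of build GRCm38.p6, from 250 bases before to 50 bases after each start site. Promoters of 8 of the 10 members were matched by symbol, and 4 of the 8 held the element: Hspa5, Hsp90b1, Pdia6 and Creld2. Among all 32851 promoters, 39 held it (0.119%). The element is already known from genes of the ER stress response, so these shares are a description and no test of enrichment. The stretches around the matches are shown because they are the sequence feature that several members share. Capitals mark the element, read along the gene's strand. Where it lies on the other strand it appears as its reverse complement.
Hspa5: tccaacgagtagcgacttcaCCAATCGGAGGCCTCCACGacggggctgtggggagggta
Hsp90b1: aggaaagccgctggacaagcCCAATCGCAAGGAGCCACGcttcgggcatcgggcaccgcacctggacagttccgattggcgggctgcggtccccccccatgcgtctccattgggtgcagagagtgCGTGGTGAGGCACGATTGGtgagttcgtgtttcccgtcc
Pdia6: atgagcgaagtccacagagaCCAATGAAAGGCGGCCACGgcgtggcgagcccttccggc
Creld2: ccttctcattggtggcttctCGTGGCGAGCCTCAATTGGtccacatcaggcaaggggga
The Hspa5 stretch is chr2:34772005-34772063 on the plus strand and its element begins 65 bases before the start site. The Hsp90b1 stretch is chr10:86705513-86705676 on the minus strand and holds the element in 2 places, beginning 212 and 107 bases before the start, the nearer one in the reverse orientation. The Pdia6 stretch is chr12:17266471-17266529 (plus strand), with the element from 98 bases before the start. The Creld2 stretch is chr15:88819500-88819558 (plus strand), with the element in the reverse orientation from 126 bases before the start. A second known element, ERSE-II, searched on both strands as ATTGG, any 1 base and CCACG, was found in the Dnajb11 promoter alone among the 8, as ATTGGCCCACG from base 8 counted from the start site, and in 0.0365% of all promoters. The Xbp1-type element TGACGTGG, also on both strands, was found in none of the 8 and in 0.676% of all promoters. ERSE and ERSE-II overlap in their letters, since both hold CCACG and a CCAAT box on 1 or the other strand. These matches are letters in a fixed window, and no factor binding was measured.

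All 10 members were higher with TGF-beta1 than with vehicle, by 1.21-fold to 1.59-fold, and each counting interval lay above 1. An interval above 1 was also found for 3814 of the 13712 tested genes. Among the 4124 with a mean of at least 50 CPM it was found for 1739. In RNA from a whole culture, more cells of a type and more RNA per cell cannot be told apart. The members' median log2 ratio was 0.39, beside 0.01 over all tested genes. By the rule of at least 25% higher with an interval above 1, 8 of the 10 passed, against 14.6% of all tested genes. Pdia6 and Dnajb11 fell short of it. At 1.5-fold or more, 1 of the 10 was higher, Hyou1, against 6.01% of all tested genes, and no member reached 2-fold, which 2.27% did. None was at least 20% lower, the mirror of the same rule, where 15.6% of all tested genes were.

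With Osm the same genes stayed near vehicle, between 1.02-fold lower and 1.11-fold higher. Their median log2 ratio was 0.03, beside 0.00 over all tested genes. None was at least 25% higher, where 3.98% of all tested genes were, and none was at least 20% lower, where 3.74% were. Among the 4124 with a mean of at least 50 CPM, 34 were higher and 42 were lower by these rules. Staying near vehicle with Osm thus does not set the members apart from other abundant genes. The interval lay above 1 for 2 members, Hsp90b1 at 1.03-fold (1.01 to 1.05) and Pdia6 at 1.05-fold (1.02 to 1.08). It did so for 1497 of the 13712 tested genes, and for 650 of the 4124 with a mean of at least 50 CPM. The 8 other members had intervals that held 1, which does not show that they were equal.

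Set directly against each other, Osm cells had less of every member than TGF-beta1 cells. The median log2 ratio of Osm over TGF-beta1 was -0.37, beside -0.01 over all tested genes. By the mirrored rule 7 of the 10 members were at least 20% lower with Osm, against 14.1% of all tested genes, and Pdia6, Dnajb11 and Sdf2l1 were not. Hyou1 was the only member 1.5-fold or more lower, at 1.54-fold (1.49 to 1.60), against 6.16% of all tested genes. The values of the others ran down to 1.17-fold lower for Sdf2l1 (1.04 to 1.31). The 3 comparisons share libraries pairwise, so they are not independent of each other.

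**Figure D1:**
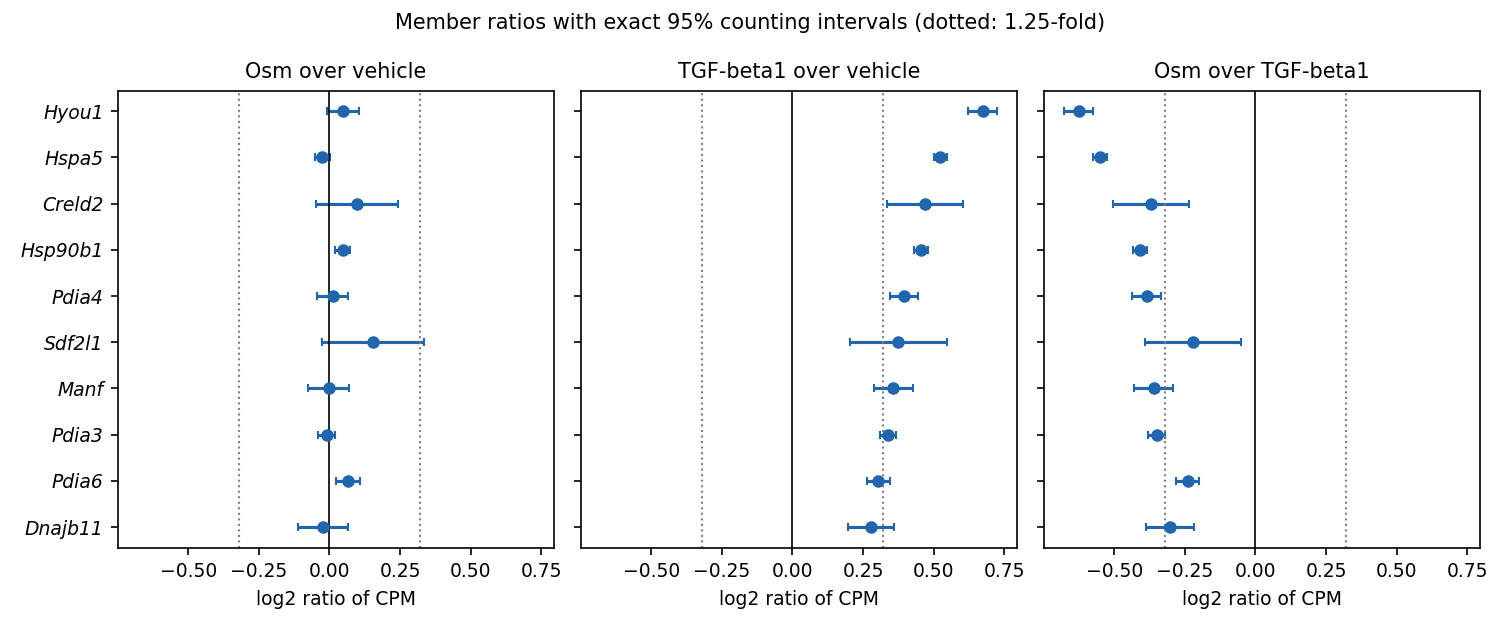
Log2 ratio of CPM for the 10 members in each of the 3 comparisons, with exact 95% counting intervals as bars and dotted lines at 25% higher and 20% lower. The ratios of TGF-beta1 over vehicle run from 0.28 for Dnajb11 to 0.67 for Hyou1, while those of Osm over vehicle lie between -0.03 and 0.15.

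Among the Hsp70-type chaperones, Hspa5 (ENSMUSG00000026864, chromosome 2, 34661982 to 34667559, build mm39) encodes BiP itself. It was at 1241 CPM with Osm, 1816 CPM with TGF-beta1 and 1263 CPM with vehicle. The TGF-beta1 library stood alone at the top, 1.44-fold above vehicle (1.41 to 1.46), while Osm was 1.02-fold below vehicle (0.999 to 1.04). It was 1.46-fold lower with Osm than with TGF-beta1 (1.44 to 1.49).

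Hyou1 (ENSMUSG00000032115, chromosome 9, 44290787 to 44303666) encodes Grp170, a large Hsp70 relative that drives nucleotide exchange on BiP. Its levels were 286.6 CPM with Osm, 442.4 CPM with TGF-beta1 and 277.4 CPM with vehicle. It had the highest ratio of the 10 with TGF-beta1, 1.59-fold (1.54 to 1.65), and its interval did not overlap that of Hspa5, the next in order. With Osm it was at 1.03-fold (0.993 to 1.07).

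The partners of BiP were less abundant. Dnajb11 (ENSMUSG00000004460, chromosome 16, 22676595 to 22698384) encodes the J-domain protein ERdj3, which passes unfolded protein to BiP, and was at 115.8 CPM with Osm, 142.7 CPM with TGF-beta1 and 117.7 CPM with vehicle. It had the lowest ratio of the 10, 1.21-fold with TGF-beta1 (1.15 to 1.28). Sdf2l1 (ENSMUSG00000022769, chromosome 16, 16948002 to 16950247), whose product forms a complex with ERdj3, was the least abundant member, at 29.9 CPM with Osm, 34.9 CPM with TGF-beta1 and 26.9 CPM with vehicle. It was 1.30-fold higher with TGF-beta1 (1.15 to 1.46) and 1.11-fold higher with Osm (0.981 to 1.26), the widest intervals of the set, resting on 519, 643 and 495 counts. The intervals of these 2 co-chaperone genes with TGF-beta1 overlapped.

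Manf (ENSMUSG00000032575, chromosome 9, 106715511 to 106769178) encodes a small protein that binds BiP in the ER and can also be secreted. It was at 170.8 CPM with Osm, 219.2 CPM with TGF-beta1 and 171.1 CPM with vehicle, so that it was 1.28-fold higher with TGF-beta1 (1.22 to 1.34) and level with vehicle in the Osm library (0.998-fold, 0.949 to 1.05). Its annotated span overlaps Rbm15b on the same strand, at 63.0, 62.0 and 62.6 CPM with Osm, TGF-beta1 and vehicle, and Dcaf1 on the opposite strand, at 44.9, 53.6 and 46.7 CPM. Manf was above both in each library, but whether reads were split among the 3 genes was not tested.

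Hsp90b1 (ENSMUSG00000020048, chromosome 10, 86526073 to 86541373) encodes Grp94, the Hsp90 of the ER, which folds integrins among its clients. It was at 1192 CPM with Osm, 1582 CPM with TGF-beta1 and 1154 CPM with vehicle. The gene was 1.37-fold higher with TGF-beta1 (1.35 to 1.40). It is overlapped on the opposite strand by 1810014B01Rik, at 26.6, 22 and 23.4 CPM with Osm, TGF-beta1 and vehicle, far below Hsp90b1 and lowest where Hsp90b1 was highest.

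The disulfide isomerases differed less among libraries than Hspa5 and Hyou1 did. Pdia3 (ENSMUSG00000027248, chromosome 2, 121244256 to 121269168) encodes ERp57, which works with calnexin and calreticulin on glycoproteins. It was at 962.8 CPM with Osm, 1227 CPM with TGF-beta1 and 969.7 CPM with vehicle, 1.27-fold higher with TGF-beta1 (1.24 to 1.29). Pdia4 (ENSMUSG00000025823, chromosome 6, 47773075 to 47790364; ERp72) was at 308.6 CPM with Osm, 403.0 CPM with TGF-beta1 and 306.3 CPM with vehicle, 1.32-fold higher with TGF-beta1 (1.27 to 1.36). The interval of neither isomerase reached that of Hspa5.

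Pdia6 (ENSMUSG00000020571, chromosome 12, 17316546 to 17334771; P5) was at 510.8 CPM with Osm, 603.0 CPM with TGF-beta1 and 488.5 CPM with vehicle. It was 1.23-fold higher with TGF-beta1 (1.20 to 1.27), just short of the rule of 25%, while Pdia3 lay just past it. Creld2 (ENSMUSG00000023272, chromosome 15, 88703849 to 88710886), a secretable ER stress-responsive protein with reported isomerase activity, was at 44.8 CPM with Osm, 57.9 CPM with TGF-beta1 and 41.8 CPM with vehicle. With TGF-beta1 it was 1.38-fold higher (1.26 to 1.52) in an interval that held those of Hspa5 and Hsp90b1 and lay below that of Hyou1. For all 10 members the TGF-beta1 library held the highest level. The Osm library ran from 1.02-fold below vehicle for Hspa5 to 1.11-fold above it for Sdf2l1.

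The members' log2 ratios had an SD of 0.12 with TGF-beta1 and 0.06 with Osm, each against vehicle, beside 0.39 and 0.11 over the tested genes with a mean of at least 50 CPM. Of the members' 45 pairs, 20 had counting intervals that did not overlap in TGF-beta1 over vehicle, and 3 of 45 in Osm over vehicle. Pairs of other genes were not counted in this way, so these counts show no trait particular to the members. In the order of ratios with TGF-beta1, Hyou1 came first and was followed by Hspa5, Creld2, Hsp90b1, Pdia4, Sdf2l1, Manf, Pdia3, Pdia6 and Dnajb11. Only at the first step in this order, Hyou1 to Hspa5, did the intervals of neighbours not overlap. Overlap at the other steps does not show that the ratios were equal. The spread between cultures, which these intervals leave out, was not measured.

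Per length the members fell into an abundant and a less abundant set. Orders between genes rest on the annotated gene lengths, and the counting intervals do not cover error in those. Pdia3, Hspa5 and Hsp90b1 were the highest in every library and made up 66.6% of the members' summed FPKM with Osm, 68.0% with TGF-beta1 and 67.2% with vehicle. With Osm, Pdia3 led at 305.6 FPKM, followed by Hsp90b1 at 294.6 and Hspa5 at 292.4 FPKM, the last 2 within counting error of each other. In the TGF-beta1 library Hspa5 led at 430.3 FPKM, with Hsp90b1 at 393.2 and Pdia3 at 391.6 FPKM, again a pair that could not be told apart. In the vehicle library the order was Pdia3 at 309.1, Hspa5 at 298.9 and Hsp90b1 at 286.4 FPKM. Hspa5 held the first place only in the TGF-beta1 library.

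The middle of the order was held by Pdia6, at 135.9 FPKM with Osm, 161.3 with TGF-beta1 and 130.5 with vehicle, and Pdia4, at 128.2, 168.3 and 127.8 FPKM in the same libraries. Pdia4 was above Pdia6 with TGF-beta1 and below it with Osm, and the 2 overlapped with vehicle. The remaining 5 members, Manf, Hyou1, Dnajb11, Creld2 and Sdf2l1, ran from 48.3 to 26.9 FPKM with Osm, from 62.3 to 31.5 with TGF-beta1 and from 48.6 to 24.3 with vehicle, in this order in each library. Manf and Hyou1 overlapped in the TGF-beta1 library only, at 62.3 and 61.3 FPKM. Hyou1 was well below Manf in both other libraries, at 39.5 FPKM with Osm and 38.4 FPKM with vehicle. Dnajb11 and Creld2 overlapped with Osm and with TGF-beta1, and Hyou1 and Dnajb11 overlapped with vehicle. Overlap of 2 separate intervals does not show that the levels were equal.

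**Figure D2:**
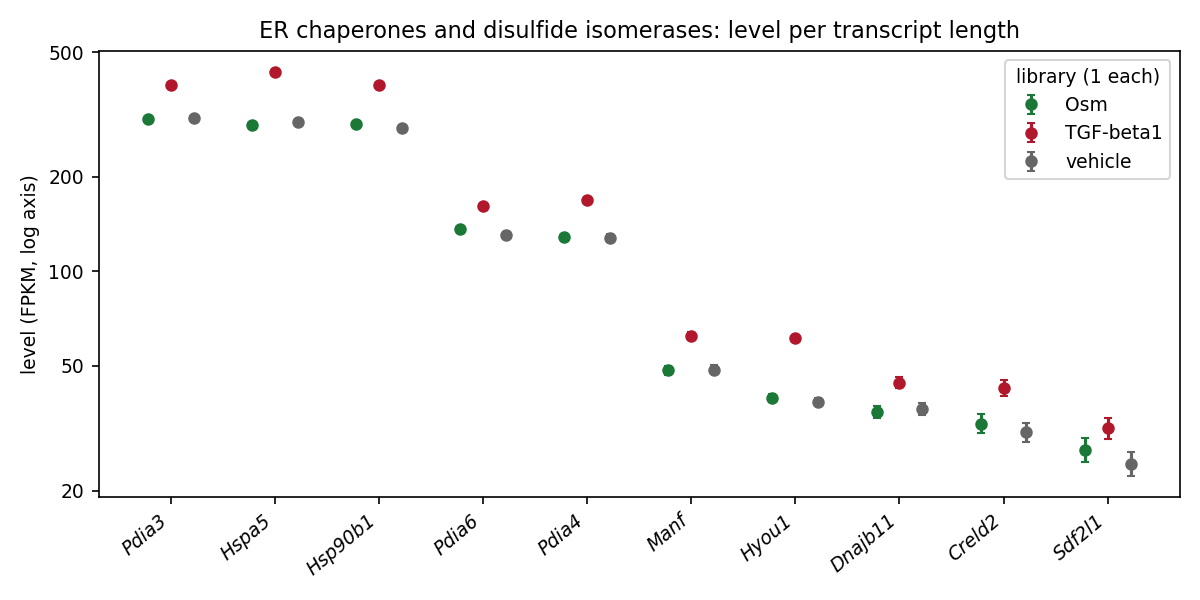
Level of each member in FPKM (log axis) in the Osm, TGF-beta1 and vehicle libraries, 1 library each, with exact 95% Poisson intervals of the count as bars. Pdia3, Hspa5 and Hsp90b1 lie at 286.4 FPKM or more in every library, and the TGF-beta1 point is the highest of the 3 for every gene.

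Together the members took 0.487% of all counts with Osm, 0.649% with TGF-beta1 and 0.483% with vehicle. The ratio of BiP to its exchange factor, Hspa5 over Hyou1 in FPKM, was 7.40 with Osm, 7.02 with TGF-beta1 and 7.78 with vehicle. Hspa5 over Dnajb11 was 8.20 with Osm, 9.74 with TGF-beta1 and 8.22 with vehicle. Beside vehicle, the TGF-beta1 library held more Hspa5 RNA per Dnajb11 RNA and less per Hyou1 RNA, and the intervals of the 3 fold values did not overlap.

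The members were also set beside the 4124 tested genes with a mean of at least 50 CPM, which include 8 of the 10. Creld2 and Sdf2l1 lie below that level, so these genes are more abundant than they are. Their central 95% of log2 ratios ran from -0.22 to 0.21 for Osm over vehicle and from -0.93 to 0.65 for TGF-beta1 over vehicle. With TGF-beta1, Hyou1 lay just beyond the upper end, and 2.23% of these genes had a higher ratio. For Hspa5 the share was 4.92%, for Hsp90b1 6.98%, for Pdia4 9.75% and for Dnajb11 17.4%. Every member lay inside the range for Osm, where the share of genes with a higher ratio ran from 6.30% for Sdf2l1 to 61.6% for Hspa5. Every member was thus above the middle of the abundant genes with TGF-beta1, and all but Hyou1 lay inside their central range.

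**Figure D3:**
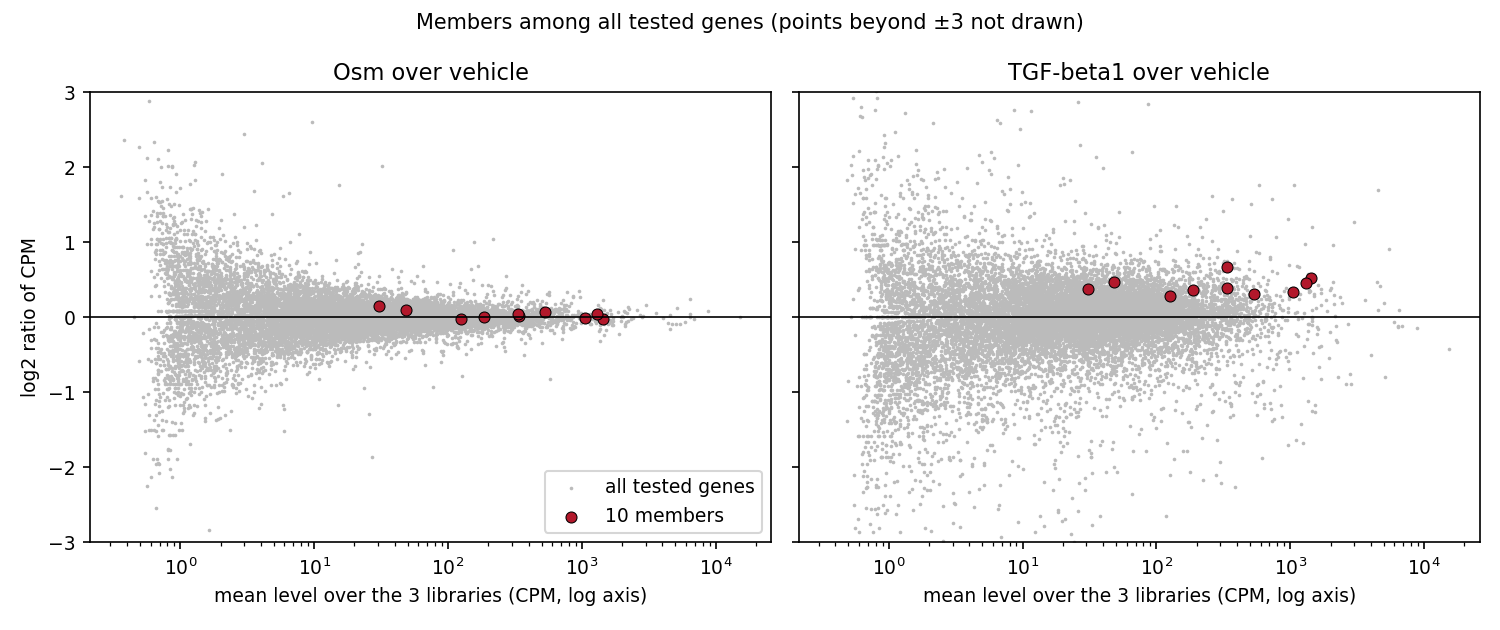
Log2 ratio of CPM against mean level over the 3 libraries (CPM, log axis) for the tested genes (grey) and the 10 members (red), for Osm over vehicle and TGF-beta1 over vehicle, with 40 points beyond 3 on either side left out of the panels. The members follow the middle of the cloud with Osm and lie in its upper part with TGF-beta1.

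Genes whose pair of ratios was nearest to the members' medians were found by distance among 4077 protein-coding non-members with a mean of at least 50 CPM, over the 3 libraries. The 3 nearest were Emp3, Eif3b and Uba3, none of them a gene of ER folding. Emp3, a small membrane protein gene, was at 94.3 CPM with Osm, 120.7 CPM with TGF-beta1 and 92.2 CPM with vehicle. In all, 284 genes lay within 0.1 log2 units of the medians, so many genes shared the pattern of the members in these libraries.

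The related lists hold the members' neighbours in the pathway. Calreticulin and calnexin hold glycoproteins for Pdia3. Calr was at 1338 CPM with Osm, 1582 CPM with TGF-beta1 and 1235 CPM with vehicle, 1.28-fold higher with TGF-beta1 (1.26 to 1.30), and Canx was 1.17-fold higher (1.15 to 1.20). In their list of 10 tested genes 2 were at least 25% higher and none at least 20% lower, and below a list's higher and lower genes are counted by these rules. The 2 were Calr and Uggt2, a folding sensor for glycoproteins (1.30-fold, 1.14 to 1.49). The median log2 ratio of this list was 0.23.

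In the list of other disulfide isomerases and Creld1, 2 of 13 tested genes were higher with TGF-beta1 and 1 was lower (median 0.20). P4hb, which encodes the archetypal isomerase and a subunit of the collagen prolyl hydroxylase, was at 1818 CPM with Osm, 2023 CPM with TGF-beta1 and 1725 CPM with vehicle, 1.17-fold higher with TGF-beta1 (1.16 to 1.19). Txndc5, another abundant isomerase, was at 1.07-fold (1.04 to 1.09). Pdia5 was 1.27-fold higher (1.18 to 1.36) and Txndc16 1.65-fold lower (1.49 to 1.83), at 32.7 CPM with TGF-beta1 and 54.0 CPM with vehicle. The other partners of BiP had a median of 0.02, with none of 10 higher and 1 lower. Among them Dnajc10 was at 1.01-fold (0.972 to 1.05), Dnajc3 was 1.10-fold higher with TGF-beta1 (1.06 to 1.14), Sdf2, the paralog of Sdf2l1, 1.12-fold lower (1.03 to 1.22) and Sil1, another exchange factor of BiP, 1.49-fold lower (1.34 to 1.66). Hyou1 and Sil1 serve the same step on BiP and lay on opposite sides of vehicle. Sdf2 overlaps the more abundant Supt6 on the opposite strand, at 184.8, 163.0 and 179.7 CPM with Osm, TGF-beta1 and vehicle, and is uncertain.

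The oxidases and peroxidases that supply disulfides had a median of 0.01 with 1 of 9 higher, the low Ero1b (1.27-fold, 1.02 to 1.60). Qsox2 was at 1.23-fold (1.11 to 1.36), Gpx8 at 1.09-fold (1.03 to 1.16) and Prdx4 1.15-fold lower (1.07 to 1.24). For ER-associated degradation the median was 0.10, and 3 of 17 genes were higher and 1 was lower. Vcp, the ATPase that pulls proteins out of the ER, was at 1.44-fold (1.41 to 1.48), but 40.5% of its 50-base windows are shared with another gene. Herpud1, a stress-induced part of the degradation complex, was at 117.4 CPM with Osm, 178.3 CPM with TGF-beta1 and 127.7 CPM with vehicle, 1.40-fold higher with TGF-beta1 (1.32 to 1.47). Os9, a lectin of the same complex, was 1.27-fold lower (1.21 to 1.32). Among the KDEL receptors and cargo receptors, which return or export ER proteins, 1 of 7 was higher, Mcfd2 (1.29-fold, 1.24 to 1.34). Kdelr2, a KDEL receptor, was at 1.19-fold (1.14 to 1.24) and Surf4, a cargo receptor, at 1.12-fold (1.09 to 1.15), around a list median of 0.17.

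The regulators of the unfolded protein response were mixed at the level of RNA. Atf6, whose protein acts on the ERSE, was at 110.0 CPM with Osm, 170.1 CPM with TGF-beta1 and 109.1 CPM with vehicle, 1.56-fold higher with TGF-beta1 (1.47 to 1.65). Wfs1, an ER membrane protein, was 1.56-fold higher (1.42 to 1.71). The kinase sensors Ern1 (Ire1) and Eif2ak3 (Perk) were 1.08-fold (1.02 to 1.15) and 1.18-fold (1.09 to 1.27) lower with TGF-beta1. Xbp1 was at 198.1 CPM with Osm, 184.1 CPM with TGF-beta1 and 191.3 CPM with vehicle, and gene counts do not tell its spliced form from the unspliced one. Atf4 was 1.23-fold higher with TGF-beta1 (1.20 to 1.27) and Ddit3, which encodes the stress factor Chop, likewise at 1.23-fold (1.13 to 1.34). Ddit3 overlaps Mars1 on the opposite strand over 68 bases. In this list 4 of 18 tested genes were higher and none was lower, around a median of 0.10.

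Among the targets of the Atf4 arm 9 of 15 were higher and none was lower (median 0.39). Asns, which makes asparagine, was at 197.0 CPM with Osm, 347.2 CPM with TGF-beta1 and 201.8 CPM with vehicle, a 1.72-fold difference with TGF-beta1 (1.65 to 1.79). Nupr1 was 1.84-fold higher (1.73 to 1.96), and Shmt2 (1.77-fold, 1.69 to 1.85), Phgdh (1.63-fold, 1.56 to 1.71) and Psat1 (1.58-fold, 1.53 to 1.63), enzymes of serine and glycine metabolism, were also higher. Phgdh shares 47.8% of its windows with other genes. Chac1, a glutathione-degrading enzyme, was 1.54-fold higher with TGF-beta1 (1.38 to 1.71) and Stc2 1.30-fold higher (1.15 to 1.47).

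Among the collagen-specific folding factors 6 of 18 were higher and 1 was lower (median 0.14). Serpinh1, the collagen chaperone Hsp47, was at 1828 CPM with Osm, 2337 CPM with TGF-beta1 and 1814 CPM with vehicle, 1.29-fold higher with TGF-beta1 (1.27 to 1.31). Fkbp10, an ER prolyl isomerase acting on collagen, was 1.48-fold higher (1.42 to 1.54) and Plod3, a collagen lysyl hydroxylase, 1.54-fold higher (1.49 to 1.58). The collagen prolyl hydroxylase subunit P4ha3, low in all libraries, was 2.84-fold higher (2.22 to 3.68), while the abundant P4ha1 was at 1.02-fold (0.996 to 1.05), and Tmem38b, an ER ion channel, was 1.49-fold lower (1.32 to 1.67). Of the ER prolyl isomerases 2 of 8 were higher, Fkbp10 and Fkbp11 (1.42-fold, 1.27 to 1.60), and Fkbp9 was 1.15-fold lower (1.12 to 1.19). Ppib, the ER cyclophilin, was level with vehicle at 1.00-fold (0.967 to 1.04).

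**Figure D4:**
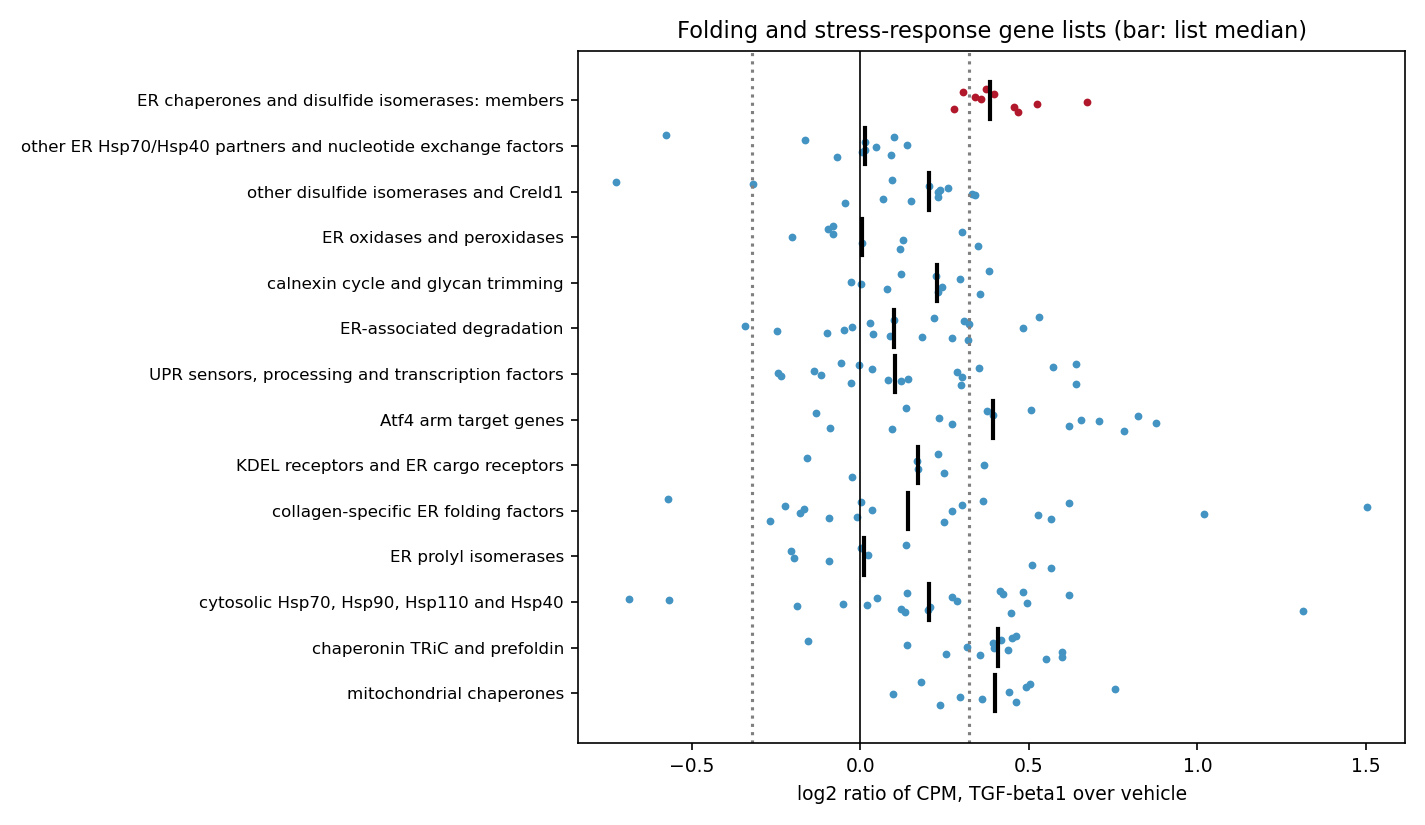
Log2 ratio of CPM, TGF-beta1 over vehicle, for each tested gene of 14 gene lists, with list medians as bars and dotted lines at 25% higher and 20% lower. The members (red) have a median of 0.39, near those of the chaperonin (0.41), mitochondrial chaperone (0.40) and Atf4 arm (0.39) lists, and above those of the other ER lists, which lie between 0.01 and 0.23.

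Chaperones outside the ER were counted by the same rules. The cytosolic chaperonin TRiC and prefoldin, which fold actin and tubulin, had a median of 0.41, and 10 of its 14 genes were higher. Cct6a was 1.52-fold (1.45 to 1.59), Cct3 1.51-fold (1.45 to 1.59), Cct2 1.47-fold (1.41 to 1.53) and Cct8 1.32-fold (1.26 to 1.38) above vehicle. Cct6a overlaps Psph on the opposite strand, at 53.9, 111.4 and 61.8 CPM with Osm, TGF-beta1 and vehicle, and is less certain. Of the mitochondrial chaperones 6 of 10 were higher (median 0.40), with Hspd1 at 1.69-fold (1.63 to 1.75) and the protease Lonp1 at 1.42-fold (1.34 to 1.49). Hspd1 shares 39.7% of its windows with other genes. No gene of these lists was lower. The list of cytosolic Hsp70, Hsp90, Hsp110 and Hsp40 genes held 7 of 20 that were higher and 2 that were lower (median 0.20). Cryab, a small heat shock protein, was 2.48-fold higher (2.38 to 2.59) and Hspa4l 1.54-fold higher (1.42 to 1.67). The stress-inducible Hspa1b was 1.61-fold lower (1.5 to 1.72), with 62.3% of its windows shared. Across all 3 compartments the median log2 ratios of Osm over vehicle were near 0, between 0.00 and 0.03 for these 3 lists and the members. Single genes ran as low as -0.22 among the mitochondrial chaperones and as high as 0.29 in the chaperonin and prefoldin list.

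The closest relatives of 3 members were compared by compartment. For Hsp70, Hspa5 was 1.44-fold higher with TGF-beta1, the cytosolic Hspa8 1.34-fold (1.32 to 1.36) and the mitochondrial Hspa9 1.36-fold (1.32 to 1.39). The interval of Hspa5 lay above both. For the Hsp110 type, Hyou1 at 1.59-fold lay above the cytosolic Hspa4 (1.21-fold, 1.16 to 1.26) and Hsph1 (1.40-fold, 1.31 to 1.49). For Hsp90, Hsp90b1 at 1.37-fold overlapped the cytosolic Hsp90aa1 (1.41-fold, 1.37 to 1.45) and lay above Hsp90ab1 (1.22-fold, 1.20 to 1.24) and the mitochondrial Trap1 (1.13-fold, 1.05 to 1.23). Hspa8 and Hsp90aa1 share 38.6% and 47.5% of their 50-base windows with transcripts of other genes, so their values are less certain than those of the members.

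**Figure D5:**
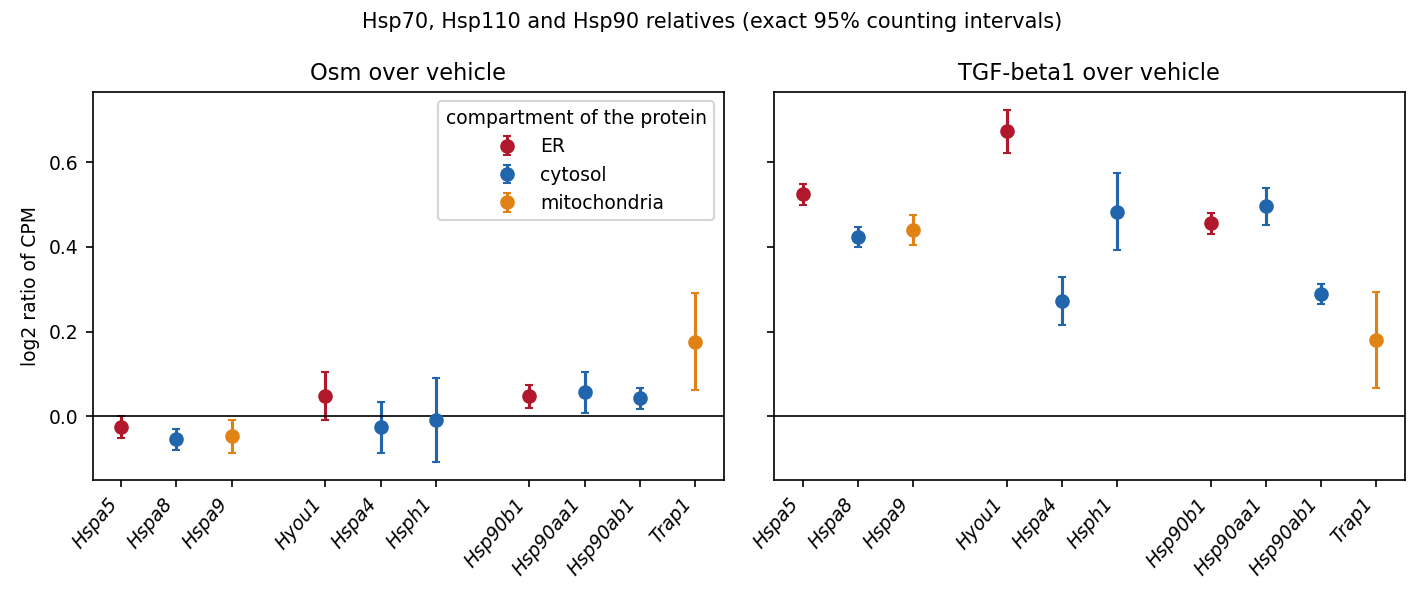
Log2 ratio of CPM for the ER members Hspa5, Hyou1 and Hsp90b1 and their cytosolic and mitochondrial relatives, Osm over vehicle and TGF-beta1 over vehicle, with exact 95% counting intervals. Hspa5 and Hyou1 lie above their relatives with TGF-beta1, and Hsp90b1 overlaps Hsp90aa1.

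The members' own transcripts shared little sequence with annotated transcripts of other genes, searched in the sense direction only. In 8 of the 10 no 50-base window of their transcripts occurred in a transcript of another gene, and the shares were 0.167% for Hyou1 and 2.96% for Hsp90b1, whose windows were shared with Gm15344 and Gm25745. Gm15344 was at 1.04, 0.814 and 0.815 CPM with Osm, TGF-beta1 and vehicle.

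The promoters shown above were set beside the ratios, after both were known. The 4 members with an ERSE, Hspa5, Hsp90b1, Pdia6 and Creld2, had log2 ratios of TGF-beta1 over vehicle from 0.30 to 0.52, with a median of 0.46. The 4 matched members without it, Pdia3, Pdia4, Dnajb11 and Sdf2l1, ran from 0.28 to 0.40 with a median of 0.36, so the ranges overlapped. Outside the members 14 tested genes held the element. Of these, 5 belong to the related lists (Calr, Canx, Dnajc3, Ero1b and Syvn1) and had log2 ratios from 0.14 to 0.36. The 9 others ran from -1.88 for Acacb to 1.29 for Zfp57, with a median of -0.32. Both ends are low genes, Acacb at 1.52 CPM with TGF-beta1 and 5.65 with vehicle, and Zfp57 at 6.84 and 2.77 CPM. Genes with the element thus lay on both sides of vehicle.

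Markers of other cells that differed with TGF-beta1 are given beside these results. The 8 mural cell markers summed to 58.9 CPM with Osm, 124.3 CPM with TGF-beta1 and 60.5 CPM with vehicle. Cspg4 alone gave 7.38, 74.9 and 8.53 CPM of these sums, and Rgs5, the defining pericyte gene, had 3, 3 and 6 counts. Over the 6 tested mural markers the median log2 ratio of TGF-beta1 over vehicle was -0.06. By the rules used for the lists, 2 of the 6 were higher and 3 were lower, with the lowest log2 ratio at -1.29. The 6 endothelial markers summed to 40.7, 36.3 and 50.4 CPM with Osm, TGF-beta1 and vehicle. By the same rules the 2 tested ones were both lower with TGF-beta1, with log2 ratios of -0.49 and -1.25. In the same order of libraries the 11 leukocyte markers summed to 15.4, 14 and 17.6 CPM. The 6 mesothelial markers summed to 40.4, 49.8 and 41.2 CPM. Most of the mesothelial sum was Wt1, at 36.1, 43.4 and 37.1 CPM, while the median log2 ratio of TGF-beta1 over vehicle over its 5 tested markers was 0.75. Upk1b, with 33 counts with TGF-beta1 and 16 with vehicle, and Krt19, with 28 and 12, were at least 2-fold higher. The part of these markers, and of the fibroblast markers given above, in the members' differences was not tested.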

How the data were processed

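RNA sequencing of 3 libraries of mouse visceral adipose fibroblasts was analysed, 1 each for Osm, TGF-beta1 and vehicle, grouped by their titles. Per the labels' protocols, messenger RNA was selected with poly-T beads and copied with random hexamers, and they leave the strand type of the libraries unsettled. The authors deposited read counts for each Ensembl gene as whole numbers, together with FPKM. CASAVA, HISAT, HISAT2, TopHat2 and the build mm39 are named in the submitters' processing notes. The program that counted the reads and its annotation: not given in the sources used here. On a check of the values, a deposited FPKM is the count over gene length and over a library size matching the DESeq2 size factor times the geometric mean of the totals.

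Counts were scaled to CPM by TMM (edgeR 4.0.16, R 4.3.3), with factors of 1.00 for Osm, 0.995 for TGF-beta1 and 1.00 for vehicle. Log2 ratios used a prior count of 0.5. With 1 library per condition no model was fitted, and each ratio has an exact 95% conditional binomial (Clopper-Pearson) interval. Reads carry no molecular identifiers, so intervals cover counting error only. A gene was called higher at a ratio of at least 25% above 1, and in the same way at 1.5-fold and 2-fold, where its interval also excluded 1. The lower direction mirrored this. The script was tested on simulated data. Alternatives were DESeq2 1.42.0 size factors, total counts, upper-quartile factors, deposited FPKM, a prior count of 2 and other filters. Python 3.11.15 was used with scipy 1.17.1, numpy 2.4.6, matplotlib 3.10.9 and pandas 2.3.3.

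The members, the 13 related lists, the 8 marker lists and the thresholds were chosen with earlier results of these data known. All members are named. From each related list the text names, among genes at 5 CPM or more in a compared library, the 2 largest ratios with TGF-beta1 and those past 1.5-fold in any comparison, then the 2 highest levels, and in any case set relatives of the members and regulators of the unfolded protein response. Genes of like pattern are the 5 nearest to the pair of member medians, of which the first 3 are named and the rest are not reported here. The ERSE was set beside the ratios after the values were seen. Gene positions are those of the deposited table, and promoter sequences are RefSeq's. Shared windows were counted in GENCODE transcripts.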

Additional observations from a re-analysis of the deposited data

How the results depend on the processing

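The members' ratios hardly depended on scaling. Under DESeq2 size factors, total counts, upper-quartile factors, the deposited FPKM with a pseudocount of 0.1 and a prior count of 2, the largest shift of a member's log2 ratio was 0.0186. The members' median ran from 0.02 to 0.03 for Osm over vehicle, from 0.37 to 0.39 for TGF-beta1 over vehicle and from -0.37 to -0.35 for Osm over TGF-beta1. The number at least 25% higher with TGF-beta1 was 7 under upper-quartile factors, where Pdia3 (log2 ratio 0.32) dropped out, and 8 under the others. The number at least 20% lower with Osm than with TGF-beta1 was 7 under each, a count added after seeing the data. The filter on low genes moved the share of all genes at least 25% higher with TGF-beta1, to 9.59% with no filter and 15.5% at 10 CPM or more, and with Osm to 2.91% and 2.25%. No paired analysis was possible because each condition has 1 library, and for the same reason no library could be left out. The spread between cultures was not measured.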
